A study of Mus musculus with 6 samples.

Results

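The cytochrome P450 genes of mouse dorsal skin were compared between Cbl-b-/- and WT mice after a single exposure to UVB. Their members were all transcript clusters with 1 gene symbol that begins with Cyp and a digit, which gave 87 genes among the 19938 genes with a transcript cluster of their own. P450 enzymes under other symbols were not counted as members, and Cyp24a1, which inactivates vitamin D, was not analysed here. Each transcript cluster is a set of probes on an Affymetrix whole-transcript mouse array (Mouse Gene 1.0 ST), and the values are normalized expression on the log2 scale. Of all 35556 transcript clusters, 21789 carried 1 gene symbol, 1621 several and 12146 none, so a share of all transcript clusters is not a share of genes. Both groups carried 3 mice, with 1 array of whole dorsal skin RNA from each. The Cbl-b-/- mice (spelled clb-b -/- in the labels) lacked the E3 ubiquitin ligase Cbl-b, and the WT mice were the controls, with both on the BL6 background and matched for sex and age. The ages were not given in the sources used here. Mice of both groups were shaved on the back, received 80 mJ/cm2 of UVB once and were sampled 24 h later, so each difference below is one between genotypes in irradiated skin. Arrays of nonirradiated skin were not analysed here.

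P450 enzymes are haem proteins that insert oxygen into a substrate, with electrons that reach them from NADPH through a reductase or, in mitochondria, through ferredoxin. In skin they make and break signaling lipids, sterols, steroids, retinoic acid and vitamin D, and they oxidise foreign chemicals. Cyp7b1 hydroxylates oxysterols and some steroids. Cyp1a1, Cyp1a2 and Cyp1b1 are the classical targets of the aryl hydrocarbon receptor (AhR), a receptor that also binds tryptophan photoproducts formed under UVB.

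The AhR acts as a dimer with Arnt that is known to bind the core letters GCGTG. The 250 bases before the transcription start of the 3 Cyp1 genes, as RefSeq gives them on GRCm38.p6, are shown because the genes of this family are read out below as AhR targets. They are printed 5′ to 3′ on the gene's strand, with GCGTG, or CACGC where it lies on the opposite strand, in capitals.
Cyp1a1, chr9:57697363-57697612, strand plus: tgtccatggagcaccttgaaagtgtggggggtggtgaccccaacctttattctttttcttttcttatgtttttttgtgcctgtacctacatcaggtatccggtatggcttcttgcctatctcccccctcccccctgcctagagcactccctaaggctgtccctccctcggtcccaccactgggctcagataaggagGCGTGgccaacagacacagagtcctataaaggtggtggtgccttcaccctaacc
Cyp1b1, chr17:79715062-79715311, strand minus: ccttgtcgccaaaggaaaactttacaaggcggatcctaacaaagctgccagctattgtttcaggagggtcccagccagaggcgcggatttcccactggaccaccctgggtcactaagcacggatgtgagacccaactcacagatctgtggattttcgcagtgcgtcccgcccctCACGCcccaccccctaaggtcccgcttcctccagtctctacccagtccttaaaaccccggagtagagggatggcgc
Cyp1a2, chr9:57683656-57683905, strand minus: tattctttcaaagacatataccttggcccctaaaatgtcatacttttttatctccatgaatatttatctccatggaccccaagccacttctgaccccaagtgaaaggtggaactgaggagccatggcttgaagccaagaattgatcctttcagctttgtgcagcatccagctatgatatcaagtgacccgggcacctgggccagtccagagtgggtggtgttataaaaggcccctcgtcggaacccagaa

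The Cyp1a1 window held 1 GCGTG, 54 bases before the start, and the Cyp1b1 window held 1 on the opposite strand, 76 bases before the start. The Cyp1a2 window held neither spelling. On both strands, GCGTG was found in 28.2% of the 32851 promoter windows of the same length, in 30.9% of the 27025 genes with a window and in 15 of the 64 P450 genes with a window (23.4%). AGGTCA, a half-site that nuclear receptors are known to bind, was found in 15.8% of the genes with a window and in 15 of the same 64 genes (23.4%). These matches are letters in a window and were not tested for binding.

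The arrays resembled each other, with array medians of 6.296 to 6.338 log2 and correlations between arrays of 0.980 to 0.993. Cblb itself stood at 8.61, 8.69 and 8.61 in the Cbl-b-/- arrays and at 9.91, 9.66 and 9.72 in the WT arrays, lower in every Cbl-b-/- array, with a difference of −1.12 ± 0.092 (SE). Which exons the allele lacks was not given in the sources used here. Of the 11 interfollicular keratinocyte symbols listed, 8 were measured, and all 8 lay above the background reference, with medians of 10.92 to 11.78 across arrays. The background reference is 5.44 log2, the 95th percentile of the mean levels of 1023 olfactory receptor transcript clusters, and is approximate because probes differ in affinity. The array of WT replicate 3 stood apart in hair follicle markers, with a median of 9.18 over the 15 measured of 16 listed, against 5.37 to 6.98 in the other 5 arrays. It was also high in melanocyte markers, with a median of 8.17 over the 6 measured of 7 listed, against 6.21 to 6.76. Cbl-b-/- replicate 2 had the highest median of the 7 neutrophil markers, at 9.496 against 7.07 to 8.83. All of them but Mpo, whose mean lay under the background reference, were highest in that array. The samples were whole skin, in which fewer cells of a type and less RNA per cell cannot be told apart.

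Of the 87 P450 genes, 39 had a mean over the 6 arrays above the background reference and 48 had not. In 35 genes all 6 arrays lay above it, and in 46 genes none did. At the study's thresholds of an unadjusted p under 0.05 and a 1.5-fold difference, in limma, 1 member was lower in Cbl-b-/- skin, none was higher and the other 86 did not pass. That is 1.15% of members, against 1.22% of all 35556 transcript clusters, of which 0.945% were lower and 0.276% higher. At an unadjusted p under 0.05 alone, 6 members were higher and 1 was lower, 8.05% of members against 6.55% of all transcript clusters (3.68% higher and 2.87% lower). Of these 7, 5 had a mean under the background reference, and the 2 above it were 5.13% of the 39 members there. The count of 7 fell to 2 with only transcript clusters above the background reference. It fell to 4 under cyclic loess, to 4 with Cbl-b-/- replicate 2 left out and to 3 with Cbl-b-/- replicate 3 left out, and it rose to 10 with WT replicate 3 left out. No member passed an adjusted p of 0.05 in limma (0.00281% of all transcript clusters did), and none did in the methods' per-row analysis of variance (0.00562%). The latter put 7 members under an unadjusted p of 0.05, against 6.98% of all transcript clusters. The median log2 difference, Cbl-b-/- minus WT, was 0.043 over the members and 0.020 over all transcript clusters. It was 0.0076 over the 39 members above the background reference and 0.066 over the 48 under it.

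The 3 arrays of 1 genotype all lay above or all lay below the 3 of the other in 11 members (12.6%), 9 higher and 2 lower, against 13.5% of all transcript clusters (8.66% higher and 4.89% lower). Both lower members, Cyp7b1 and Cyp1b1, were above the background reference. Of the 9 higher members, 8 were under it. The 95% interval of the difference stayed within 1.5-fold in both directions in 64 members (73.6%), against 77.9% of all transcript clusters, and in 20 of the 39 above the background reference (51.3%). In the other 19 of these 39 genes, a 1.5-fold difference in at least 1 direction was not excluded by the interval.

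**Figure D1:**
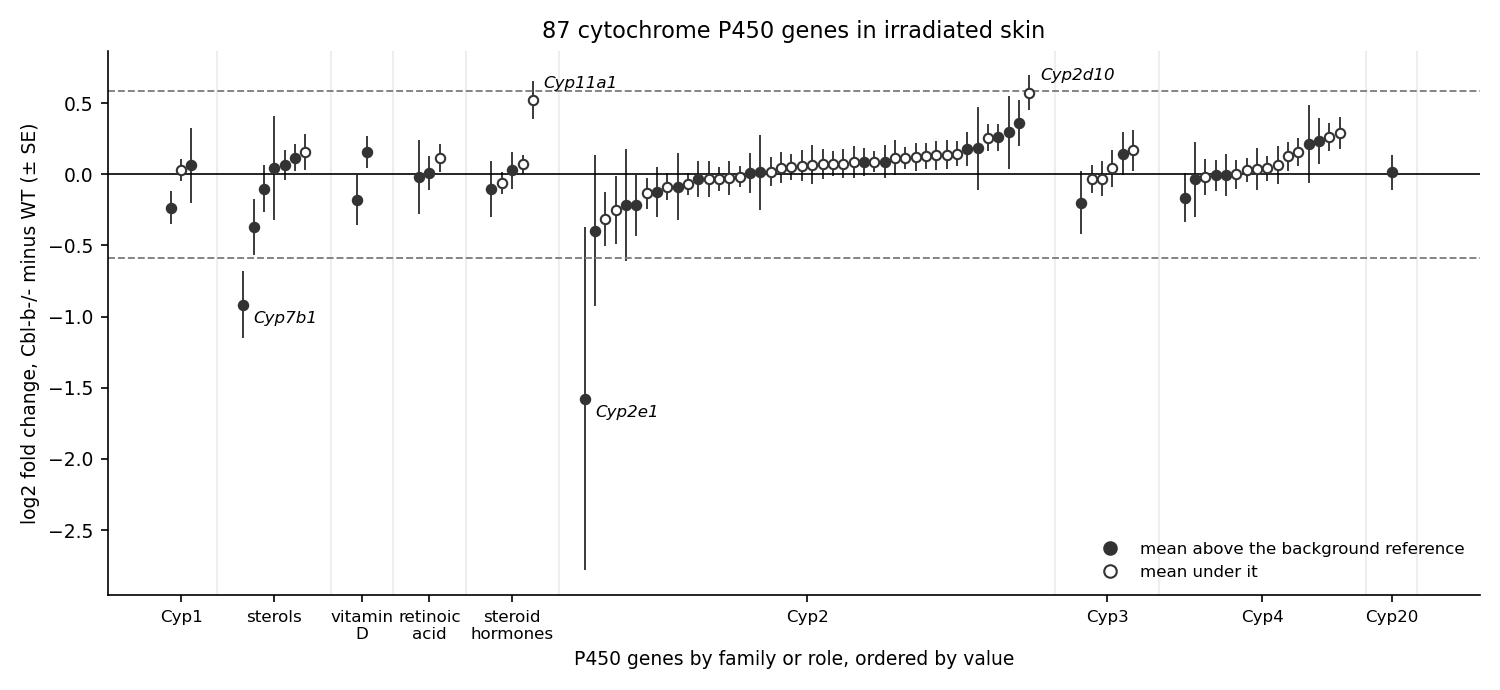
Log2 difference (Cbl-b-/- minus WT) of each of the 87 P450 genes, grouped by family or role, with its standard error from limma. Filled points have a mean above the background reference and open points a mean under it, and dashed lines mark 1.5-fold. Cyp7b1 lies past the lower line with an error bar (SE 0.24) that does not reach it. Cyp2e1 lies past it with an error bar that reaches well inside it, and most points lie close to 0.

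Among the 7 P450 genes of sterols, oxysterols and bile acids, Cyp7b1 fell in Cbl-b-/- skin and the other 6 did not pass the thresholds. Cyp7b1 hydroxylates side-chain oxysterols and thereby changes their activity as signals, and it also acts on steroids such as dehydroepiandrosterone. Its level was 8.06, 7.70 and 7.20 in Cbl-b-/- replicates 1 to 3 and 8.66, 8.76 and 8.29 in WT replicates 1 to 3. All 3 Cbl-b-/- arrays lay below all 3 WT arrays, and the closest pair was Cbl-b-/- replicate 1 and WT replicate 3. The group means were 7.65 ± 0.43 and 8.57 ± 0.25 (SD, n = 3 each), a difference of −0.91 ± 0.24 (SE) or 1.89-fold, with a 95% interval of −1.48 to −0.35. In limma the unadjusted p was 0.0070 and the adjusted p over all transcript clusters was 0.685. With any 1 array left out the difference was −1.12 to −0.69 and still passed the study's thresholds.

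The remaining sterol genes had intervals that included 0. Cyp27a1, the mitochondrial enzyme that oxidises the cholesterol side chain, stood at 8.40, 7.71 and 8.87 in Cbl-b-/- skin and at 8.70, 8.47 and 7.68 in WT skin. Its groups overlapped throughout, with a difference of 0.043 ± 0.36 and an interval of −0.83 to 0.92. Cyp39a1, another oxysterol hydroxylase, stood at 7.0, 6.36 and 7.01 against 7.19, 6.97 and 7.33. Cbl-b-/- replicate 2 was low for this gene and the other 5 arrays lay close together, and the difference was −0.37 ± 0.20 (interval −0.85 to 0.11). Cyp51, the lanosterol demethylase of cholesterol synthesis, stood at 8.86, 8.67 and 8.69 against 8.81, 9.17 and 8.54, a difference of −0.10 ± 0.17 (interval −0.50 to 0.30). Cyp46a1, which hydroxylates cholesterol in neurons, differed by 0.12 ± 0.095 and lay above the background reference in all 6 arrays. The bile acid enzymes were dim in skin. Cyp8b1 lay above the background reference in 3 arrays and differed by 0.064 ± 0.10, and Cyp7a1, the rate-limiting enzyme of the classical bile acid pathway in liver, lay under it in all 6 arrays.

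**Figure D2:**
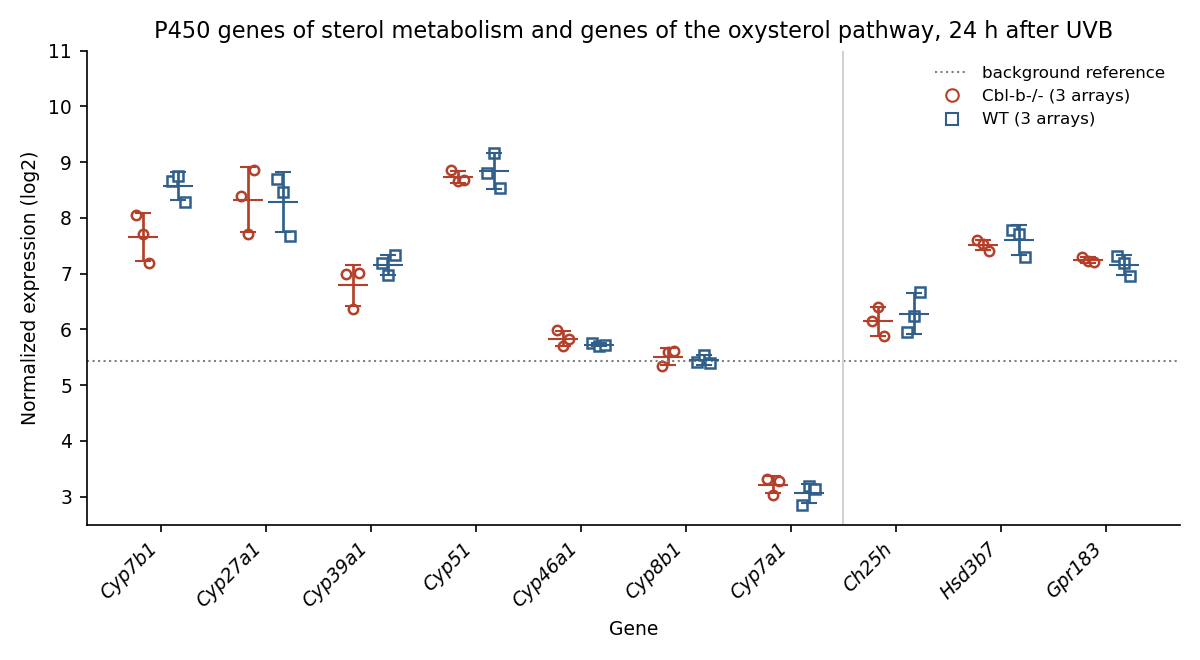
Normalized expression (log2) of the 7 P450 genes of sterol metabolism and of Ch25h, Hsd3b7 and Gpr183 in each array, with the mean and SD of each genotype (n = 3) and the background reference as a dotted line. The Cbl-b-/- points of Cyp7b1 lie between 7.20 and 8.06, all below the WT points at 8.29 to 8.76, and the genotypes overlap in the other 9 genes.

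Of the 14 symbols listed around Cyp7b1 in the oxysterol pathway, 12 were measured, none reached an unadjusted p of 0.05, and their median difference was 0.010. Ch25h makes a substrate of Cyp7b1 from cholesterol, and it stood at 6.15, 6.40 and 5.89 in Cbl-b-/- skin and at 5.95, 6.24 and 6.67 in WT skin. Hsd3b7, which acts on the product of Cyp7b1, differed by −0.089 ± 0.14 (interval −0.43 to 0.25). Gpr183, the receptor of the oxysterols that Cyp7b1 makes, stood at 7.30, 7.22 and 7.21 against 7.31, 7.19 and 6.96, a difference of 0.095 ± 0.11 (interval −0.17 to 0.36). For these 3 genes the genotypes overlapped.

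None of the 3 Cyp1 genes passed the thresholds. Cyp1b1 stood at 8.96, 9.00 and 8.87 in Cbl-b-/- skin and at 9.13, 9.01 and 9.38 in WT skin. The 3 Cbl-b-/- arrays all lay below the 3 WT arrays, but Cbl-b-/- replicate 2 and WT replicate 2 were almost level. The difference was −0.23 ± 0.11 with an interval of −0.51 to 0.04, and the adjusted p in limma was 0.751. With 1 array left out it ranged from −0.31 to −0.13. Cyp1a1 stood at 6.23, 5.30 and 5.37 against 5.52, 5.80 and 5.38. Cbl-b-/- replicate 1 was higher than the other 5 arrays and 3 arrays were above the background reference, so that the interval of −0.57 to 0.70 around a difference of 0.064 reached almost as far as 1.5-fold below and past it above. The difference changed sign when Cbl-b-/- replicate 1 was left out (−0.24) or WT replicate 3 was (−0.030). Cyp1a2, which is known mainly from liver, stayed at 3.86 to 4.0 in all 6 arrays, under the background reference.

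Of the 11 symbols listed for the AhR pathway, 8 were measured, none reached an unadjusted p of 0.05, and their median difference was 0.052. Ahr, the receptor itself, stood at 9.98, 9.54 and 9.57 in Cbl-b-/- skin and at 9.63, 9.71 and 9.27 in WT skin, a difference of 0.16 ± 0.17 (interval −0.25 to 0.57). Ahrr, the repressor that AhR induces, was above the background reference in 3 arrays and differed by 0.070 ± 0.27.

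**Figure D3:**
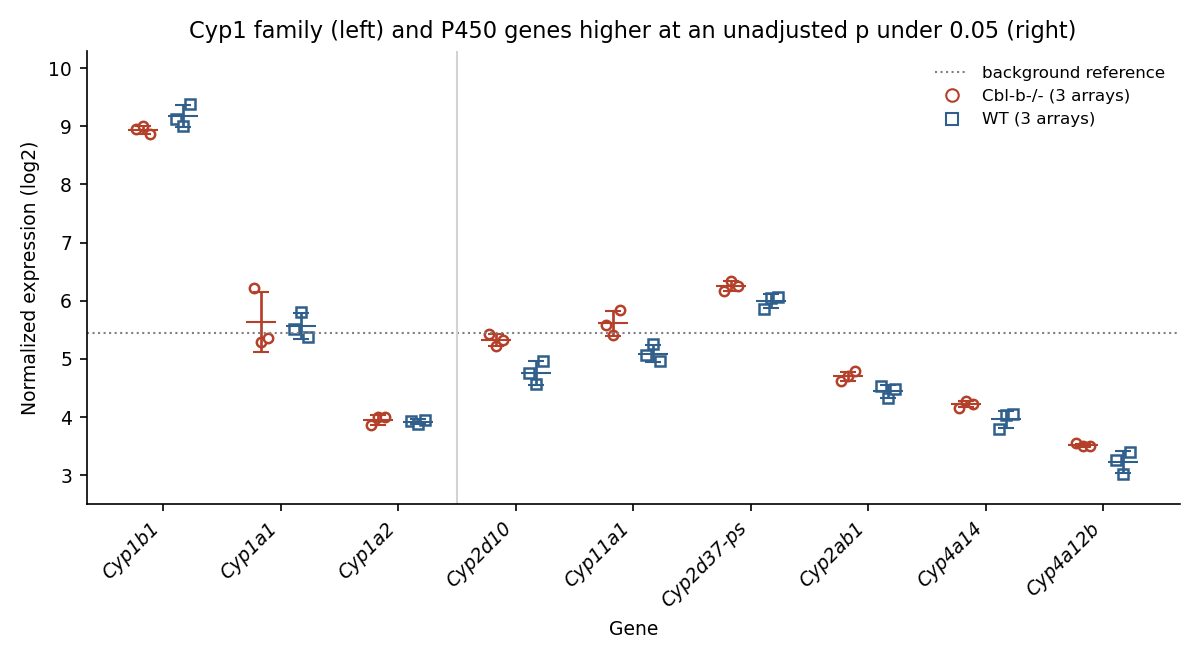
Normalized expression (log2) of the 3 Cyp1 genes and of the 6 P450 genes that were higher in Cbl-b-/- skin at an unadjusted p under 0.05, in each array, with the mean and SD of each genotype (n = 3) and the background reference as a dotted line. Of the 6 higher genes only Cyp2d37-ps has every array above the reference, while Cyp2d10, Cyp2ab1, Cyp4a14 and Cyp4a12b have every array under it.

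Neither of the 2 vitamin D activating genes passed an unadjusted p of 0.05. Cyp27b1, which makes the active hormone, stood at 5.80, 5.44 and 5.54 in Cbl-b-/- skin and at 5.56, 5.64 and 6.11 in WT skin, a difference of −0.18 ± 0.17 (interval −0.60 to 0.24). Cyp2r1, which carries out the preceding hydroxylation, stood at 6.09, 6.01 and 5.92 against 6.01, 5.89 and 5.66, a difference of 0.15 ± 0.11 (interval −0.11 to 0.42). Of the 8 vitamin D pathway symbols listed, 7 were measured. In limma, none was higher at an unadjusted p under 0.05 and 1 was lower (14.3%, against 2.87% of all transcript clusters). This was Vdr, the vitamin D receptor, at 10.61, 10.48 and 10.35 against 10.58, 10.86 and 11.14, a difference of −0.38 ± 0.16 with an adjusted p of 0.749 in limma. The genotypes overlapped for Vdr, it was under 1.5-fold, and the methods' per-row analysis of variance gave it an unadjusted p of 0.0993 across the 6 arrays.

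The Cyp26 enzymes break down retinoic acid, and none of the 3 reached an unadjusted p of 0.05. Cyp26b1 stood at 9.02, 8.51 and 8.15 in Cbl-b-/- skin and at 8.46, 8.97 and 8.31 in WT skin. The arrays of both genotypes spread over the same range, and the difference was −0.022 ± 0.26 with an interval of −0.65 to 0.60. Cyp26c1 differed by 0.0076 ± 0.12, and Cyp26a1 lay under the background reference in all 6 arrays. Of the 12 retinoic acid pathway symbols listed, 11 were measured, 2 were higher and 1 was lower at an unadjusted p under 0.05 (27.3%, against 6.55% of all transcript clusters). The methods' per-row analysis of variance put 1 of the 11 under it, against 6.98% of all transcript clusters. Crabp1, a binding protein of retinoic acid, stood at 10.38, 11.02 and 10.12 against 9.87, 9.68 and 9.90, a difference of 0.69 ± 0.23 that met the study's thresholds with an adjusted p of 0.7425 in limma. It no longer met them without Cbl-b-/- replicate 2 (0.43) or without WT replicate 2 (0.62), nor in the methods' per-row analysis of variance. Rarg, a retinoic acid receptor, was higher by 0.29 ± 0.090, and Aldh1a3, which makes retinoic acid, differed by −0.56 ± 0.19, both under 1.5-fold. Aldh1a3 passed the study's thresholds with Cbl-b-/- replicate 2 left out (−0.73) and with WT replicate 1 left out (−0.67), and its unadjusted p was 0.0693 in the methods' analysis of variance across the 6 arrays.

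Of the 5 P450 genes of steroid hormone synthesis, Cyp11a1 was higher at an unadjusted p under 0.05 in limma and the other 4 were not. That is 20.0%, where 3.68% of all transcript clusters were higher. The methods' per-row analysis of variance put 2 of the 5 under it, Cyp11a1 and Cyp21a1, against 6.98% of all transcript clusters. Cyp21a1 differed by 0.069 ± 0.070 and lay under the background reference in all 6 arrays. Cyp11a1 cleaves the cholesterol side chain in the first step of steroid synthesis. It stood at 5.59, 5.41 and 5.84 in Cbl-b-/- skin and at 5.06, 5.25 and 4.96 in WT skin. The genotypes did not overlap, yet all 3 WT arrays and Cbl-b-/- replicate 2 lay under the background reference, so the difference of 0.52 ± 0.14 (interval 0.20 to 0.85) is one between dim signals. Its adjusted p in limma was 0.685. It stayed just under 1.5-fold and passed it without Cbl-b-/- replicate 2 (0.62) or without WT replicate 2 (0.60). Cyp17a1, the hydroxylase and lyase of androgen synthesis, stood at 7.32, 7.36 and 7.35 against 7.79, 7.55 and 6.99, a difference of −0.10 ± 0.20. Its 3 Cbl-b-/- arrays were almost level while the WT arrays spread to both sides of them. Cyp11b2, the aldosterone synthase, differed by 0.027 ± 0.13.

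The Cyp2 family was represented by 44 genes besides Cyp2r1, of which 16 had a mean above the background reference, and none passed the study's thresholds. Its enzymes oxidise drugs, solvents and fatty acids. The median difference of the 44 genes was 0.064, and 3 of them (6.82%) were higher at an unadjusted p under 0.05, where 3.68% of all transcript clusters were higher and 6.55% passed in either direction.

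Cyp2e1, which oxidises ethanol and acetone, stood at 6.69, 5.48 and 9.05 in Cbl-b-/- skin and at 10.75, 8.29 and 6.91 in WT skin. Its range over the 6 arrays was 5.27 log2, against a median range of 0.43 over the members and 0.40 over all transcript clusters. The genotypes overlapped, and the difference of −1.58 ± 1.21 had an interval of −4.47 to 1.32. Without WT replicate 1 it was −0.52, and without Cbl-b-/- replicate 3 it was −2.56. Cyp2f2, which oxidises naphthalene in the airway, had the next range among the members (2.22), with 10.19, 8.73 and 10.40 against 10.96, 10.04 and 9.52. Its difference of −0.40 ± 0.53 changed sign, to 0.12, when Cbl-b-/- replicate 2 was left out.

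The low values of Cyp2f2 and Cyp27a1 were those of Cbl-b-/- replicate 2 and WT replicate 3, and these arrays were also low in the markers of tissue beneath the dermis. WT replicate 3 also had the lowest median of interfollicular keratinocyte markers, at 10.92 against 11.23 to 11.78, and Cbl-b-/- replicate 2 had the highest. The summed level of these markers on the log2 scale was also lowest in WT replicate 3 (13.94). It was highest in WT replicate 2 at 14.43, against 14.40 in Cbl-b-/- replicate 2. Krt15 and Ivl were lowest in Cbl-b-/- replicate 2. In macrophage markers, too, WT replicate 3 had the lowest median, at 8.19 against 8.42 to 9.07. Of the 7 measured, only Csf1r had its lowest value in that array. The 9 adipocyte markers measured of 10 listed, all above the background reference, had medians of 9.70, 7.65 and 9.59 in Cbl-b-/- skin and of 9.10, 8.79 and 7.85 in WT skin. Their summed level on the log2 scale ranged from 12.05 to 13.34 and from 12.39 to 13.21. The 10 skeletal muscle markers, all measured and above the background reference, had medians of 10.37, 9.12 and 10.34 against 10.93, 10.57 and 9.69, and their summed level ranged from 13.27 to 14.36 and from 13.70 to 14.49. Among the 39 P450 genes above the background reference, the lowest of the 6 arrays was WT replicate 3 in 14 (35.9%, against 21.8% of all transcript clusters above it) and Cbl-b-/- replicate 2 in 10 (25.6%, against 14.7%). The part of adipose tissue, muscle, hair follicle, keratinocytes and macrophages in these differences was not tested. For Cyp7b1 itself, Cbl-b-/- replicate 2 was the middle of the 3 Cbl-b-/- arrays. The difference was −0.94 with Cbl-b-/- replicate 2 left out and −1.05 with WT replicate 3 left out. Of the 10 sebaceous gland markers, 8 were lower and 2 higher in Cbl-b-/- skin (median difference −0.11). Of the 8 dermal fibroblast markers, 6 were lower and 2 higher (−0.18). Of the 9 adipocyte markers, 7 were higher and 2 lower (0.31). Lower in Cbl-b-/- skin were also 13 of the 15 hair follicle markers (−0.38), 8 of the 10 skeletal muscle markers (−0.25) and all 6 melanocyte markers (−0.66). Higher were 6 of the 8 interfollicular keratinocyte markers (0.12). Macrophage and neutrophil markers went both ways (−0.028 and −0.15). Over all 35556 transcript clusters, 15722 differences were below 0. The part of tissue composition in the Cyp7b1 difference was not tested, and leaving out 1 array does not test it.

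**Figure D4:**
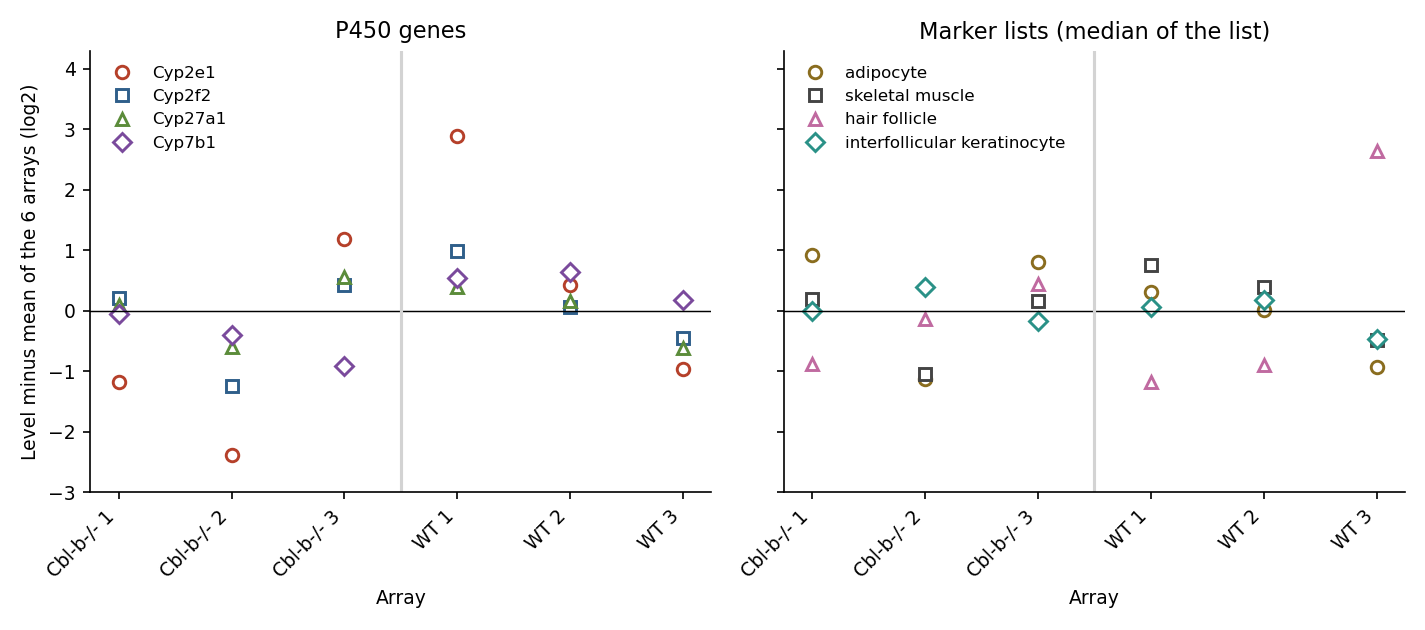
Level of 4 P450 genes (left) and median level of 4 marker lists (right) in each array, as the difference from the mean of the 6 arrays on the log2 scale. Cyp2f2, Cyp27a1, adipocyte and skeletal muscle markers are lowest in Cbl-b-/- replicate 2 and WT replicate 3, hair follicle markers are high in WT replicate 3, and Cyp7b1 is above 0 in each WT array and below it in each Cbl-b-/- array. The median of the interfollicular keratinocyte markers is lowest in WT replicate 3 and highest in Cbl-b-/- replicate 2.

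The 10 Cyp2d genes lie next to each other on chromosome 15 and are near copies, so the probes of 1 can take up RNA of another and their single values are uncertain. Cyp2d10 stood at 5.43, 5.23 and 5.33 in Cbl-b-/- skin and at 4.76, 4.56 and 4.96 in WT skin. The genotypes did not overlap, but all 6 arrays lay under the background reference, so the difference is one between dim signals. Its difference was 0.57 ± 0.12 (interval 0.28 to 0.87), with an unadjusted p of 0.0028 and an adjusted p of 0.628 in limma. The transcribed pseudogene Cyp2d37-ps, which lay above the background reference in all arrays, stood at 6.17, 6.33 and 6.26 against 5.86, 6.05 and 6.07, a difference of 0.26 ± 0.093. Cyp2d22 differed by 0.36 ± 0.16, and its genotypes overlapped. Across the cluster 8 differences were above 0 and 2 were below it, with Cyp2d11 at −0.31 and Cyp2d12 at −0.13. Cyp2ab1, on chromosome 16 like Cblb, lay under the background reference and differed by 0.26 ± 0.092.

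Cyp2j6, of a subfamily that forms epoxides of arachidonic acid, differed by 0.29 ± 0.26. Cyp2b10, known as an inducible enzyme of liver, stood at 9.94, 10.34 and 9.87 against 10.54, 10.43 and 9.85, a difference of −0.22 ± 0.21 (interval −0.73 to 0.30). Cyp2b23 differed by −0.22 ± 0.39. Cyp2b19, an arachidonic acid epoxygenase of keratinocytes that was picked out after its values were seen, stood at 9.62, 9.37 and 9.83 against 9.69, 9.58 and 9.67. The genotypes overlapped, and the interval of its difference, −0.34 to 0.27, lay within 1.5-fold.

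The 6 Cyp3 genes, drug and steroid hydroxylases, included none at an unadjusted p under 0.05, and 2 were above the background reference. Cyp3a13 differed by 0.14 ± 0.15 and Cyp3a57 by −0.20 ± 0.22. Of the 16 Cyp4 genes, which hydroxylate the ends of fatty acids, 2 (12.5%) were higher at an unadjusted p under 0.05, against 3.68% of all transcript clusters, and none passed the study's thresholds. The methods' per-row analysis of variance put 1 of the 16 under it, against 6.98% of all transcript clusters. Both genes higher in limma, Cyp4a14 (0.26 ± 0.097) and Cyp4a12b (0.29 ± 0.11), lay under the background reference in all 6 arrays. Cyp4f39, which hydroxylates the ultra-long fatty acids of the epidermal barrier lipids, stood at 9.34, 9.48 and 9.15 in Cbl-b-/- skin and at 9.04, 9.39 and 8.83 in WT skin, a difference of 0.23 ± 0.16 (interval −0.16 to 0.63). Cyp4b1, a fatty acid and drug hydroxylase, stood at 9.09, 8.35 and 8.69 against 9.10, 8.87 and 8.27, and its difference was −0.034 ± 0.26. Cyp4b1 was another gene with its lowest values in WT replicate 3 and Cbl-b-/- replicate 2. Cyp20a1, whose substrate is not settled, differed by 0.013 ± 0.12.

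The proteins that pass electrons to P450 enzymes and supply their haem were listed as 15 symbols, of which 11 were measured. Por, the microsomal reductase, was not analysed here. The methods' per-row analysis of variance put 2 of the 11 under an unadjusted p of 0.05, Cyb5r3 (0.19 ± 0.086) and Fdx1 (0.10 ± 0.074), against 6.98% of all transcript clusters. In limma, 1 gene of the list (9.09%) was past the study's thresholds, against 1.22% of all transcript clusters (0.276% higher). This was Hmox1, which breaks down haem and is induced by oxidative stress. It stood at 11.09, 10.94 and 10.89 in Cbl-b-/- skin and at 10.88, 10.17 and 9.98 in WT skin. WT replicate 1 was almost level with Cbl-b-/- replicate 3 and the other 2 WT arrays were lower, and the difference was 0.63 ± 0.23 with an adjusted p of 0.749 in limma. It lost the call when any array other than WT replicate 1 was left out (0.44 to 0.67) and in the methods' per-row analysis of variance.

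Among 11 measured regulators of P450 genes, nuclear receptors together with the sterol-response factor Srebf2, none reached an unadjusted p of 0.05 in limma. Their median difference was 0.10. The methods' per-row analysis of variance put 1 of the 11 under it, Nr5a1 (0.18 ± 0.084), against 6.98% of all transcript clusters. Of 10 genes that handle epoxides and omega-hydroxylated lipids, 2 (20.0%) were higher at an unadjusted p under 0.05, against 3.68% of all transcript clusters, and neither reached 1.5-fold. The methods' per-row analysis of variance put none of the 10 under it. Abca12, the transporter that loads barrier lipids into lamellar granules, stood at 10.80, 10.83 and 10.78 against 10.48, 10.63 and 10.03, a difference of 0.42 ± 0.16. Cpt1a, which takes fatty acids into mitochondria, differed by 0.38 ± 0.14. Tbxas1 and Ptgis, P450 enzymes of thromboxane and prostacyclin synthesis, differed by 0.55 ± 0.31 and by 0.079 ± 0.12, and neither reached an unadjusted p of 0.05.

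**Figure D5:**
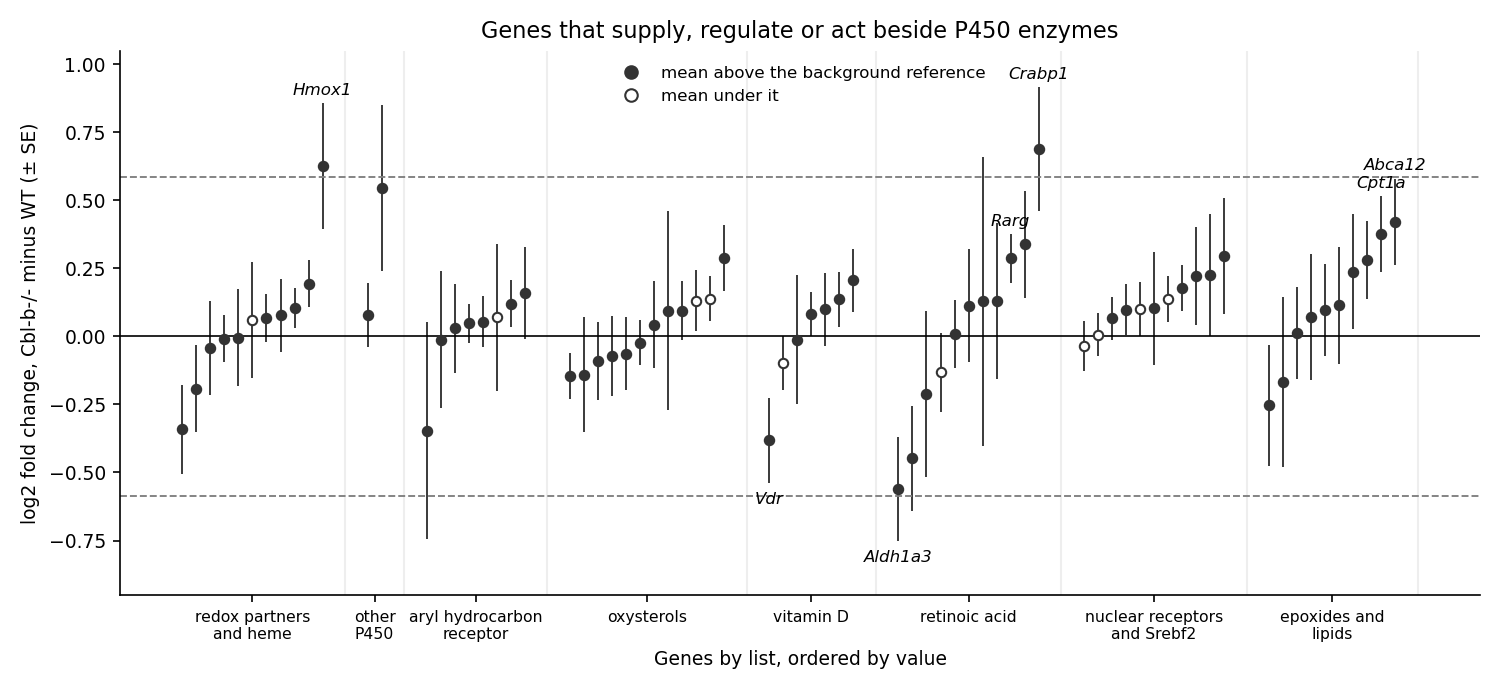
Log2 difference (Cbl-b-/- minus WT) of genes that supply, regulate or act beside P450 enzymes, by list, with its standard error from limma. Dashed lines mark 1.5-fold, filled points have a mean above the background reference, and the genes at an unadjusted p under 0.05 are named. Hmox1 and Crabp1 lie past the upper line, and no gene lies past the lower one.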

How the data were processed

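Total RNA of dorsal skin from 3 Cbl-b-/- and 3 WT mice was hybridised to Affymetrix Mouse Gene 1.0 ST arrays. The deposited values are on the log2 scale. The authors made them by robust multichip average in Partek (version 6.5 in the submitters' processing notes), with background correction, quantile normalization across arrays and median polish. Such normalization hides a shift shared by all genes and compresses low signals. The genome build was not given in the sources used here.

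Groups followed the genotype labels, and each array is a biological replicate per the methods. All 35556 transcript clusters were compared with limma 3.58.1 in R 4.3.3 (lmFit and eBayes), and p-values were adjusted by the Benjamini-Hochberg method over all of them. Calls used an unadjusted p under 0.05 and 1.5-fold, as in the study. The methods' per-row test was an equal-variance analysis of variance. With 3 against 3 arrays, an exact permutation test of a single gene cannot go below 0.10. The number of arrays limits the precision.

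Gene symbols came from GEO's platform annotation. It gave 1 symbol for 21789 transcript clusters, several for 1621 and none for 12146. All 87 member symbols matched RefSeq. Levels were set against a background reference, the 95th percentile of the mean levels of 1023 olfactory receptor transcript clusters. Promoter windows came from RefSeq (GRCm38.p6). Limma and the analysis of variance were run on simulated data with independent normal noise, which holds no variation shared by many transcript clusters.

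The members, the pathway lists and the marker lists were chosen with earlier results of these data known, among them that of Cyp7b1, so a direction seen there is not independent support. Named were Cyp7b1 and the Cyp1 genes, members past the thresholds or at an unadjusted p under 0.05, the 10 largest differences among members above the background reference, all members for sterols, vitamin D and retinoic acid, the 2 with the highest mean of each other role, and pathway genes that passed or were listed by name.

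Alternatives were cyclic loess, median centring, the methods' per-row test, trend and robust variances, array weights, a filter on dim transcript clusters, the replicate number as a block, and leaving out each array.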

Additional observations from a re-analysis of the deposited data

How the results depend on the processing

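Cyp7b1 kept its direction and its call at the study's thresholds under every alternative run, and it was the only member called under the methods' per-row test, cyclic loess, median centring, trend and robust variances, the filter on dim transcript clusters and the replicate block. Array weights called 2 members, Cyp7b1 and Cyp2d10, and leaving out 1 array called 1 to 3, with 3 (Cyp7b1, Cyp2d10 and Cyp11a1) without Cbl-b-/- replicate 2. Over all transcript clusters the 434 calls became 267 under the methods' per-row test, 223 with dim transcript clusters left out and 428 to 790 with 1 array left out, where 790 was without Cbl-b-/- replicate 2. The 1 transcript cluster at an adjusted p under 0.05 in limma became 2 under the methods' per-row test, 12 with array weights and 1 to 2 with 1 array left out. Among 47 named genes, 550 of 602 values kept direction and call, 36 reversed, 7 gained the call and 9 lost it. Under cyclic loess Cyp1a2 stood at −0.0089, Cyp11b2 at −0.033 and Cyp26c1 at −0.045, and under median centring Cyp26c1 stood at −0.0001. Under array weights Cyp11b2 stood at −0.069, Cyp20a1 at −0.056, Cyp27a1 at −0.090 and Cyp8b1 at −0.021. With 1 array left out, the difference ranged from −0.24 to 0.23 for Cyp1a1, −0.082 to 0.13 for Cyp11b2, −0.33 to 0.071 for Cyp17a1, −0.090 to 0.075 for Cyp20a1, −0.25 to 0.18 for Cyp26b1, −0.050 to 0.12 for Cyp26c1, −0.26 to 0.35 for Cyp27a1, −0.59 to 0.032 for Cyp2b23, −0.72 to 0.12 for Cyp2f2, −0.27 to 0.14 for Cyp4b1, −0.25 to 0.064 for Cyp51, −0.17 to 0.28 for Ahrr, −0.31 to 0.050 for Ch25h, −0.0028 to 0.18 for Gpr183 and −0.24 to 0.0029 for Hsd3b7. The cause of these changes was not tested. The replicate numbers are not shown to pair the arrays, since the deviations of same-numbered arrays from their group means correlated at 0.23, 0.092 and 0.25. Each Cbl-b-/- array correlated best with the WT array of its own number. For Cbl-b-/- replicate 1 this was nearly level, at 0.233 with WT replicate 1 and 0.232 with WT replicate 2. With the replicate number as a block, 453 transcript clusters and 1 member were called, and Cyp7b1 stood at −0.91 with an unadjusted p of 0.0015 in limma. The mean of a gene's transcript clusters was not run, because each of the 87 genes had 1. Under the background reference, where 48 members lay, the signal could not show whether a gene was expressed.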

Other observations

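A further 7 transcript clusters carry the symbols of several genes with at least 1 P450 gene among them and were kept out of every count. The 1 above the background reference was shared by Cyp4v3 and Klkb1 and stood at 6.21, 5.70 and 6.04 in Cbl-b-/- skin and at 5.92, 5.75 and 5.66 in WT skin, a difference of 0.20 ± 0.15. The others lay under the background reference and differed by −0.12 to 0.080.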
